A study of Homo sapiens with 6 samples.

Results

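The genes described here lie wholly between 20.3 and 30 Mb of chromosome 9, on its short arm in and around band 9p21. They were chosen by position alone, whatever their type or level. The annotation placed 130 genes in this stretch, and 60 of them had a counted transcription unit (TU) in the deposited tables, of 37192 genes matched in all. Of these 60 genes, 28 are protein-coding, 24 are long noncoding RNAs (lncRNAs), 6 are pseudogenes and 2 are of a class awaiting experimental support. The other 70 genes had no matched TU and were not analysed here, and they include 9 interferon genes.

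Steady-state RNA (total RNA-seq, 4 libraries) and nascent RNA (PRO-seq, 2 libraries) were read in untreated K562 cells, a human line from chronic myelogenous leukemia that carries the BCR-ABL1 fusion. PRO-seq reads nascent RNA from engaged RNA polymerases, whereas RNA-seq after rRNA depletion reads RNA at steady state, with or without a poly-A tail. All cells came from 1 source kept under the same conditions, with no other cell line or treatment to compare with. The spread between libraries therefore does not hold differences between cultures, and p-values measure only the spread between these libraries.

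This stretch is known for CDKN2A and CDKN2B. CDKN2A makes p16INK4a, which inhibits the kinases CDK4 and CDK6, and ARF, which inhibits MDM2. CDKN2B makes p15INK4b, a relative of p16INK4a. Next to them lies MTAP, the enzyme that recycles methylthioadenosine in methionine salvage, and then the cluster of type I interferon genes, which are silent in most cells until a virus is sensed. Tumors often lose these neighbors together, and K562 is known as a line in which the CDKN2A locus is missing. DNA copy number was not measured in these libraries, so a gene without RNA and a gene without DNA cannot be told apart here.

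Counts were not low over the whole stretch. Genes near its start (MLLT3 and FOCAD) and a group at 26.84 to 27.57 Mb (CAAP1, PLAA, IFT74, MOB3B and C9orf72) gave RNA and nascent RNA in every library. From HACD4 to the last gene before CAAP1, which includes the CDKN2A locus, no gene had more than 3 RNA-seq counts over 4 libraries. After C9orf72, the last 7 genes of the stretch held 3 RNA-seq counts together. The genes are therefore called by their position and not as a deletion.

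Promoters of 3 genes show how unlike the neighbors are in sequence. They are shown as the 250 bases before the start site in RefSeq on GRCh38.p14, 5′ to 3′ on the gene's strand, with CG dinucleotides in capitals. The first is MTAP (chr9:21802386-21802635, plus strand), a widely expressed gene that gave no RNA-seq counts here. The second is PLAA (chr9:26947243-26947492, minus strand), the gene of the stretch with the most RNA-seq counts. The third is IFNA2 (chr9:21385399-21385648, minus strand), an inducible interferon gene.
MTAP: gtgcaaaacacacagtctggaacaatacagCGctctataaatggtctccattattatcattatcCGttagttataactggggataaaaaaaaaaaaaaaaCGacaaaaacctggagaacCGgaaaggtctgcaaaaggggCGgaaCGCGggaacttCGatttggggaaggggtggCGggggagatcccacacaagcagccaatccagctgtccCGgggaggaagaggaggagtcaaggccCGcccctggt
PLAA: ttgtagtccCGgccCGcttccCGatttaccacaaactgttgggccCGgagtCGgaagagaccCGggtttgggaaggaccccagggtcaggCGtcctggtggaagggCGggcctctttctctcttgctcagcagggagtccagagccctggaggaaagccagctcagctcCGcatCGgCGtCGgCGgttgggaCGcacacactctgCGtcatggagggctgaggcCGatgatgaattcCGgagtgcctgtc
IFNA2: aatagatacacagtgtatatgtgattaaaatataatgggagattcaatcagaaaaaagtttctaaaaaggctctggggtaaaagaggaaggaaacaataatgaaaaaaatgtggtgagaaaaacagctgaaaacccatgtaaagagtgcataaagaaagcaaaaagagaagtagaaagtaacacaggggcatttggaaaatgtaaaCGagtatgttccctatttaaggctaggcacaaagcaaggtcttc

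MTAP held 11 CG, PLAA 17 and IFNA2 1, against a median of 11 over 35116 promoters (25th percentile 3, 75th percentile 23). MTAP, without RNA, and PLAA, with RNA, were therefore both between these percentiles. The promoters of 6 interferon genes of the stretch were poor in CG, with 1 to 5 each. The 28 listed promoters of 18 other protein-coding genes of the stretch had a median of 16.5 CG, with a range of 0 to 35. FOCAD, which was expressed, had the most with 35, and MIR31HG, with 1 RNA-seq count, had 34. The listed FOCAD promoter (chr9:20684009-20684258) lies inside the counted TU, which starts at 20658308 on GRCh37. MLLT3, with 42 RNA-seq counts, had 24 CG in the promoter next to the start of its counted TU. CG content was thus high in promoters with and without RNA.

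The RNA-seq libraries held between 5732780 and 9002746 counts on TUs, and the PRO-seq libraries 6993816 and 7245632. Genes of the stretch took 137 ± 9.48 CPM (counts scaled to the library's total on TUs; SD, n = 4) in RNA-seq and 552 ± 5.07 (SD, n = 2) in PRO-seq. The genes at 10 to 20 Mb took 2789 ± 44.5 and 1000 ± 0.886, and those at 32 to 38 Mb took 4285 ± 47.8 and 3735 ± 2.93. At 10 to 20 Mb most of the RNA-seq counts came from RPS6 alone. It held 70179 of 83158 RNA-seq counts and 1601 of 14245 PRO-seq counts there. A count of 0 over all libraries of an assay allows up to 3 counts, or 0.101 CPM in RNA-seq and 0.211 in PRO-seq, for counting error only. K562 identity was clear, as 13 of 13 erythroid and leukemia markers, GATA1 and TFRC among them, were above 1 TPM (the level per length, scaled to a common total) in RNA-seq, with a range of 10.8 to 6287. Markers of epithelium were above 1 TPM too in 3 of 3 cases (120 to 789 TPM). Markers of T and B cells were above 1 TPM in 1 of 4 cases, with CD3D at 109 TPM, those of monocytes and granulocytes in 1 of 4, with LYZ at 334 TPM, those of fibroblasts in 1 of 3, with COL1A2 at 1.36 TPM, and ALB of the liver stood at 0.483 TPM. Their part in the levels below was not tested.

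At least 1 RNA-seq count was found for 26 of the 60 genes (43.3%) and at least 1 PRO-seq count for 33 (55.0%). Both assays gave a count for 17 genes (28.3%), and neither did for 18 (30%). At 10 to 20 Mb, neither assay gave a count for 13.5% of 52 TUs, and at 32 to 38 Mb for 10.6% of 142. Over all 37339 matched TUs this share was 15.4%. These shares are a description with no test.

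Of 28 protein-coding genes in the stretch, 15 (53.6%) had an RNA-seq count, against 90.5% of 21 at 10 to 20 Mb and 84.0% of 94 at 32 to 38 Mb. The 28 genes include 8 interferon genes, of which 3 had an RNA-seq count and 0 a PRO-seq count. In the stretch, 6 (21.4%) exceeded 1 TPM, namely FOCAD, CAAP1, PLAA, IFT74, MOB3B and C9orf72. The share above 1 TPM was 66.7% of 21 genes at 10 to 20 Mb, 63.8% of 94 at 32 to 38 Mb and 55.4% of 19032 protein-coding TUs. The median RNA-seq level was 0.0166 TPM in the stretch, 1.67 TPM at 10 to 20 Mb and 5.07 TPM at 32 to 38 Mb. Without RNA-seq replicate 1 or replicate 2, the median of the stretch was 0. In PRO-seq the medians were 0.449, 8.53 and 14.1 TPM. Among lncRNAs, RNA-seq gave a count for 25% of 24 in the stretch, 45.5% of 22 at 10 to 20 Mb and 58.1% of 31 at 32 to 38 Mb, while PRO-seq gave one for 70.8%, 77.3% and 71.0%.

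**Figure D1:**
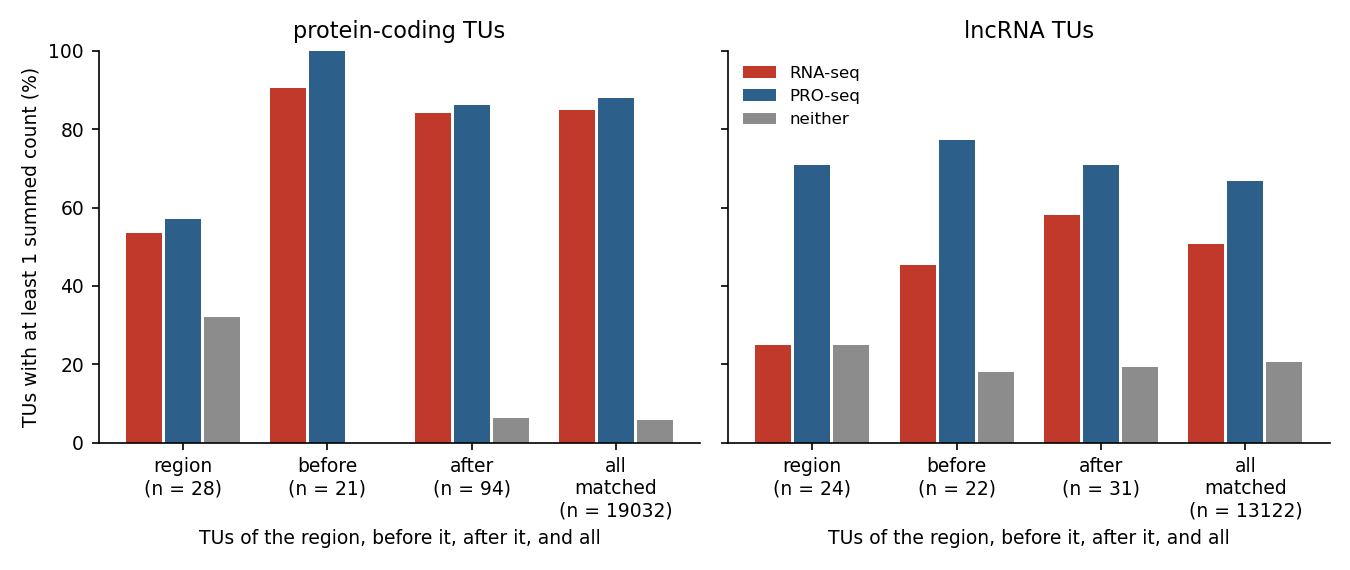
Share of TUs (%) with at least 1 summed count in RNA-seq (red), in PRO-seq (blue) or in neither assay (gray), for protein-coding TUs (left) and lncRNAs (right), in the stretch, before it (10 to 20 Mb), after it (32 to 38 Mb) and over all matched TUs. Protein-coding TUs with a count in neither assay were 32.1% in the stretch, 0% before it and 6.38% after it. Of these 9 genes in the stretch, 5 are interferon genes with little or no length left to count in PRO-seq. The PRO-seq length of MTAP, also among them, is covered by another TU.

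On both sides of the stretch, some protein-coding genes had far higher levels. RPS6, a ribosomal protein gene at 10 to 20 Mb, had 3769 TPM in RNA-seq and 871 TPM in PRO-seq. The next highest there were PSIP1 in RNA-seq (69.8 TPM) and HAUS6 in PRO-seq (84.2 TPM). At 32 to 38 Mb, the chaperone gene DNAJA1 had 533 TPM and STOML2 442 TPM in RNA-seq, and in PRO-seq VCP had 224 TPM and BAG1 144 TPM. The protein-coding gene nearest the start of the stretch was SLC24A2, with 1.67 TPM in RNA-seq and 10.6 TPM in PRO-seq. The nearest after its end was ACO1, with 20.4 and 11.3 TPM.

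**Figure D2:**
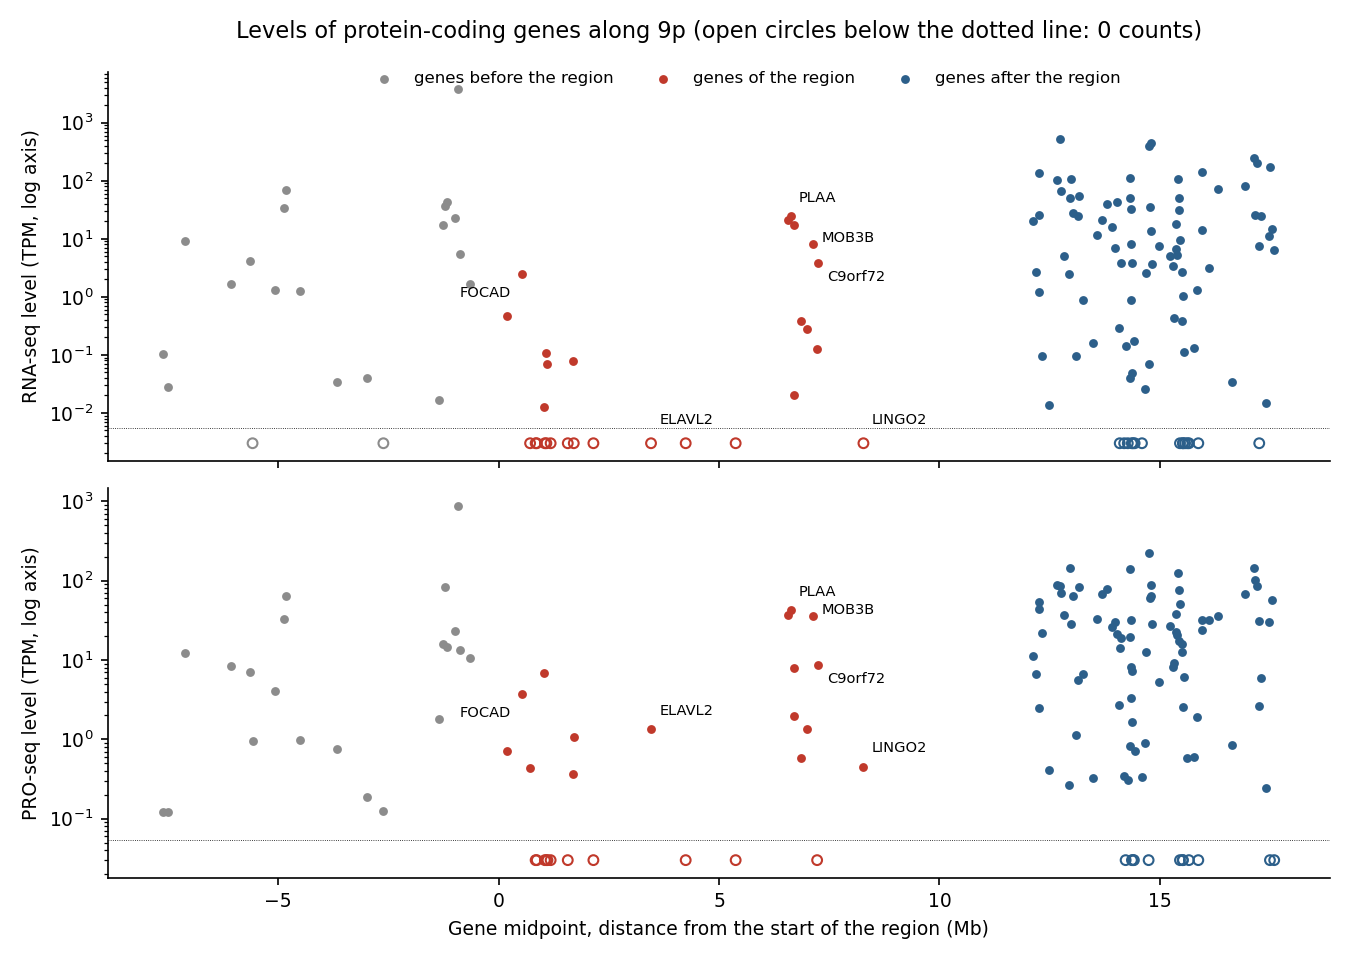
RNA-seq level (top) and PRO-seq level (bottom) of each protein-coding gene, in TPM on a log axis, against the distance of its midpoint from the start of the stretch in Mb. Gray points lie before the stretch, red points in it and blue points after it, and open circles stand for 0 counts. From the start of the stretch to CAAP1 and PLAA, the red points other than MLLT3 and FOCAD are at 0 or at most 0.107 TPM in RNA-seq, while CAAP1 and PLAA stand among the levels of the blue points.

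The order along the chromosome split the genes into 4 runs, which were drawn after the values were seen and are given with no test. From MLLT3 to FOCAD-AS1, 3 genes held 244 RNA-seq and 766 PRO-seq counts. From HACD4 to ENSG00000253400, 37 genes over 5.81 Mb held 13 RNA-seq counts in all and 471 PRO-seq counts. From CAAP1 to C9orf72, 13 genes over 0.73 Mb held 3843 RNA-seq and 6455 PRO-seq counts, which is 93.7% and 82.1% of the counts of the stretch. From CTAGE12P to ME2P1, 7 genes over 2.22 Mb held 3 RNA-seq and 170 PRO-seq counts.

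MLLT3, at the start of the stretch, encodes AF9, a reader of acetylated histones and a fusion partner of KMT2A in leukemia. It had 8, 13, 8 and 13 RNA-seq counts in replicates 1 to 4, and 45 and 58 PRO-seq counts. No library was empty, yet the level was low, at 0.459 TPM in RNA-seq and 0.705 TPM in PRO-seq. In bulk RNA, few cells with much of a transcript and many cells with little cannot be told apart. FOCAD, which encodes focadhesin, had 51, 63, 34 and 54 RNA-seq counts and 342 and 316 PRO-seq counts. In CPM these were 6.78 ± 1.05 (SD, n = 4) and 46.3 ± 3.74 (SD, n = 2), and every FOCAD value lay above every MLLT3 value of the same assay. FOCAD-AS1, on the other strand inside FOCAD, had 0 RNA-seq counts and 2 and 3 PRO-seq counts over only 385 bp of countable length.

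MLLT3, FOCAD and MIR31HG carry microRNAs on the same strand, MLLT3 those of MIR4473 and MIR4474. Small RNAs were not measured in these libraries. For the hosts with the most and the fewest RNA-seq counts, FOCAD and MIR31HG, 1 mature sequence each in RefSeq (GRCh38.p14) is given with the seed, bases 2 to 8, in capitals.
hsa-miR-491-5p (in FOCAD, chr9:20716120-20716141, plus strand): aGUGGGGAacccuuccaugagg
hsa-miR-31-5p (in MIR31HG, chr9:21512158-21512178, minus strand): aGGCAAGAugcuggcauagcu
FOCAD had 202 RNA-seq and 658 PRO-seq counts, MLLT3 42 and 103 and MIR31HG 1 and 23. The seeds of the printed sequences are not shared.

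The CDKN2A locus gave almost no counts. CDKN2A (chr9:21967751-21995300 on GRCh37, minus strand) had 1, 0, 0 and 0 RNA-seq counts and 2 and 3 PRO-seq counts. These are counts of 1 transcript, which starts at 21995300. A further listed promoter of the gene (chr9:21974858-21975107 on GRCh38.p14) lies inside this TU, and transcripts from it had no matched row of their own. CDKN2B had 0 RNA-seq counts in each of 4 libraries and 2 and 1 PRO-seq counts. Its antisense neighbor CDKN2B-AS1, also called ANRIL, had 0 RNA-seq counts and 5 and 3 PRO-seq counts over 98.5 kb of countable length. None of these genes reached 10 counts in either assay. CDKN2B shares 260 bases at 93.1% identity with CDKN2A, so single counts of either gene are uncertain.

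MTAP (chr9:21802635-21937650 on GRCh37, plus strand) had 0 counts in all 6 libraries. In RNA-seq, 7044 of its 7557 exonic bases overlapped no other counted TU on its strand, so its reads could be counted, and 3 counts would have been 0.0292 TPM. In PRO-seq it could not be measured, since the lncRNA ENSG00000264545 covers all of its countable length on the same strand. ENSG00000264545 itself had 0 RNA-seq counts and 2 and 2 PRO-seq counts over 58.5 kb that it does not share. Over all TUs, a PRO-seq count was found for only 2.87% of 2021 TUs wholly inside another TU of the same strand, against 66.1% of 3869 inside TUs of the other strand. RNA-seq gave a count for 63.0% of the same 2021 TUs.

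Of 8 interferon genes counted in the stretch, 3 had an RNA-seq count, with 4 counts in all, and none had a PRO-seq count. IFNW1, IFNA21, IFNA6, IFNA2 and IFNE had 0 RNA-seq counts in each library. IFNA13 had 1 count in replicate 1 and IFNA8 had 1 in replicate 2, whereas IFNK, which lies apart from the cluster, had 1 count in replicates 1 and 2 each. The IFNA13 transcript matches IFNA1, which was not analysed here, at 99.1% over 686 bases, so its count cannot be assigned to one of them. These genes are short, and PRO-seq has little to count in them once 500 bp at each end are removed. In IFNA2, 3 counts would have been 39.9 TPM in PRO-seq, so a level below that was not detectable at this depth. IFNE, inside MIR31HG, and IFNA13 had no countable length of their own.

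The other genes between HACD4 and CAAP1 were near 0 in RNA-seq. HACD4, a dehydratase of very long fatty acid synthesis, had 0 RNA-seq counts and 3 and 4 PRO-seq counts. KLHL9, an adaptor of a cullin ubiquitin ligase, had 0, 0, 0 and 1 RNA-seq counts and 8 and 9 PRO-seq counts. As its countable length is 4.74 kb, this made 6.87 TPM in PRO-seq against 0.0128 TPM in RNA-seq. DMRTA1, a DM domain transcription factor, the sperm gene IZUMO3 and TUSC1 had 0 counts in all 6 libraries. MIR31HG had 1 RNA-seq count in replicate 1 and 13 and 10 PRO-seq counts. Every other gene of this run had at most 3 RNA-seq counts over the 4 libraries, and the 3 were those of KHSRPP1, a pseudogene 91.9% identical to KHSRP over 1228 bases.

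PRO-seq counts in this run came mostly from long TUs. ENSG00000284418, a lncRNA of 735 kb, had 120 and 105 PRO-seq counts and 0 RNA-seq counts. ELAVL2, which encodes a neuronal RNA-binding protein, had 43 and 51 PRO-seq counts and 0 RNA-seq counts. The lncRNAs ENSG00000283982 and LINC01239 had 23 and 19 and 11 and 10 PRO-seq counts, each with 0 in RNA-seq. After CTAGE12P, LINGO2, a leucine-rich repeat gene of the nervous system, had 65 and 104 PRO-seq counts and 0 RNA-seq counts. Both PRO-seq libraries thus gave counts on each of these 5 TUs while all 4 RNA-seq libraries gave none.

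Length puts these counts on a common scale. The 5 TUs carried between 0.119 counts per kb of countable length (LINC01239) and 0.696 (ELAVL2), with 0.234 in LINGO2, 0.246 in ENSG00000283982 and 0.306 in ENSG00000284418. Across the genome, 604 TUs had at least 100 kb of countable length and no RNA-seq count. Their median was 0.216 PRO-seq counts per kb, and the 25th and 75th percentiles were 0.0957 and 0.337. Only 6 of these 604 TUs had no PRO-seq count. The values of 4 of the 5 TUs lay between these percentiles, and ELAVL2 was above them, at the 93.2 percentile. ENSG00000264545 and CDKN2B-AS1, near CDKN2A and without RNA-seq counts, span over 100 kb but have less countable length. On 4 and 8 counts, they had 0.0684 and 0.0812 counts per kb. Both are below the 25th percentile of the 604 TUs, to which neither belongs. At the same locus on the other strand, CDKN2A and CDKN2B had 0.191 and 0.555 on 5 and 3 counts. Values below that percentile occurred at 10 to 20 Mb too, with 0.0645 in SH3GL2 and 0.0866 in ENSG00000285784, both without RNA-seq counts. Among long expressed genes of the stretch, MOB3B had 18.7 counts per kb, IFT74 4.19 and FOCAD 1.95. MLLT3, with 0.368, and TEK, with 0.308, had RNA-seq counts at densities close to those of TUs without RNA-seq counts.

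**Figure D3:**
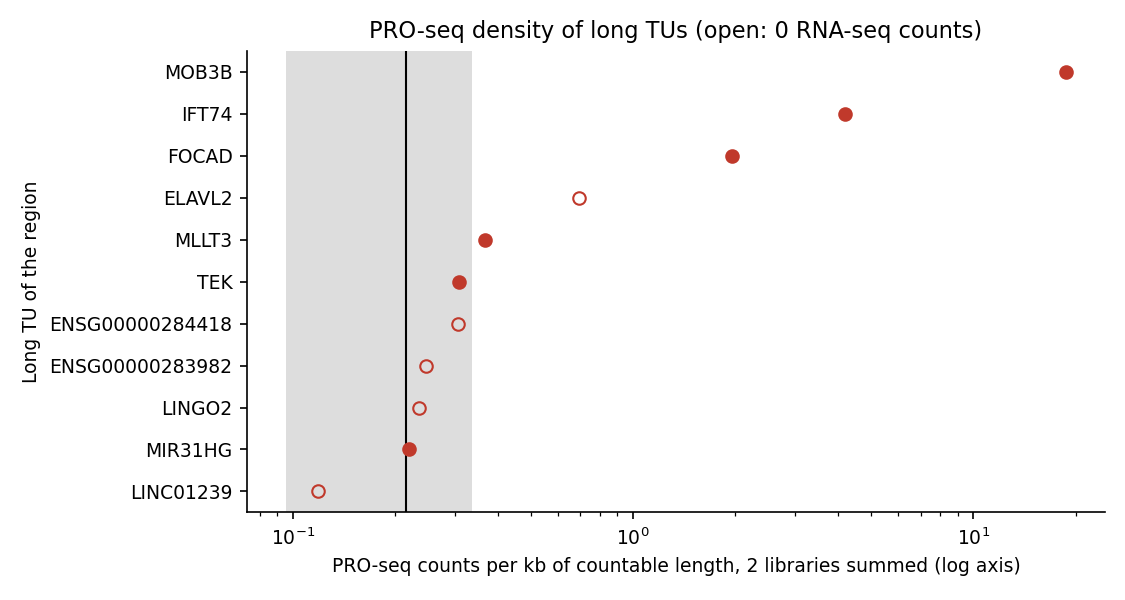
PRO-seq counts per kb of countable length, summed over 2 libraries, on a log axis, for each TU of the stretch with at least 100 kb of countable length. Filled points had RNA-seq counts, open points had none, the line is the median (0.216) and the gray band the range from the 25th to the 75th percentile (0.0957 to 0.337) of 604 long TUs without RNA-seq counts. ELAVL2 is the only open point to the right of the band.

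The run from CAAP1 to C9orf72 held the genes with most RNA. CAAP1, named for an inhibitory role in caspase activation and apoptosis, had 221, 227, 154 and 199 RNA-seq counts and 497 and 503 PRO-seq counts. In CPM these were 27.1 ± 2.16 (SD, n = 4) and 70.2 ± 1.16 (SD, n = 2). PLAA (chr9:26903370-26947240 on GRCh37, minus strand), a ubiquitin-binding partner of VCP, had 443, 493, 255 and 368 RNA-seq counts and 458 and 493 PRO-seq counts. Its 51.8 ± 5.10 CPM (SD, n = 4) were the highest RNA-seq value of the stretch, and no library of another gene reached its lowest library at 44.5. IFT74, a subunit of the intraflagellar transport machinery that builds cilia, had 134, 153, 102 and 118 RNA-seq counts and 252 and 229 PRO-seq counts.

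MOB3B, of the MOB family of kinase regulators, stood out in PRO-seq. It had 1906 and 1897 PRO-seq counts, or 267 ± 7.58 CPM (SD, n = 2), and 194, 238, 125 and 172 RNA-seq counts, or 24.3 ± 2.31 CPM (SD, n = 4). Without MOB3B, all other genes of the stretch together took 285 ± 2.51 CPM in PRO-seq. C9orf72, in which a repeat expansion is known to cause amyotrophic lateral sclerosis and frontotemporal dementia, had 46, 59, 36 and 36 RNA-seq counts and 46 and 74 PRO-seq counts. Expressed per length, RNA-seq levels were 24.3 TPM for PLAA, 21.1 for CAAP1, 17.6 for IFT74, 8.26 for MOB3B and 3.90 for C9orf72. In PRO-seq the levels were 42.5 TPM for PLAA, 37.5 for CAAP1, 35.8 for MOB3B, 8.73 for C9orf72 and 8.02 for IFT74. IFT74 thus lay above MOB3B and C9orf72 in RNA-seq and far below MOB3B in PRO-seq. IFT74 and C9orf72 changed places between the PRO-seq libraries, with 8.48 and 7.56 TPM for IFT74 and 6.76 and 10.7 TPM for C9orf72 in replicates 1 and 2.

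Tissue-restricted genes of the same run were low. TEK, the angiopoietin receptor of endothelium, had 5, 8, 5 and 6 RNA-seq counts and 13 and 24 PRO-seq counts. LRRC19 had 0, 1, 0 and 0 and then 7 and 5, and the sperm gene EQTN had 0, 3, 0 and 1 and then 1 and 7. LINC00032, inside this run, had 8, 12, 3 and 3 RNA-seq counts and 12 and 22 PRO-seq counts. ENSG00000285103, a lncRNA that overlaps C9orf72 on the other strand, had 6, 0, 3 and 4 RNA-seq counts and 4 and 5 PRO-seq counts. At the far end, ENSG00000229060, ENSG00000277646 and ME2P1, all pseudogenes, had 0 counts in every library.

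**Figure D4:**
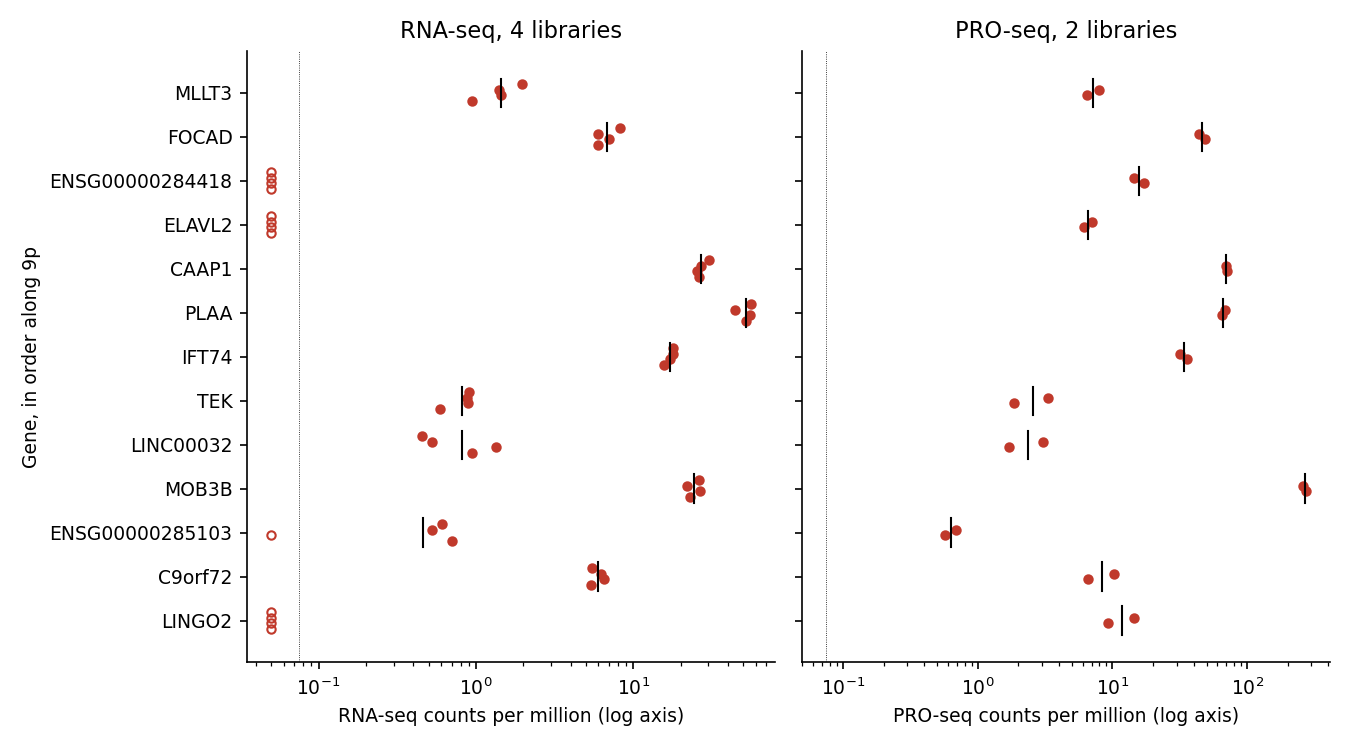
CPM of each gene with at least 10 RNA-seq or 60 PRO-seq counts, on log axes, in 4 RNA-seq libraries (left) and 2 PRO-seq libraries (right). Points are libraries, black bars are means and open points stand for 0 counts. ENSG00000284418, ELAVL2 and LINGO2 are at 0 in each RNA-seq library and between 6.15 and 17.2 CPM in PRO-seq.

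At steady state, the ratio of RNA-seq to PRO-seq level is a relative measure of RNA half-life with no time unit. Each TU was set against the median mRNA. PRO-seq level also depends on how fast the polymerase elongates, which was not measured here. The authors judged this effect to be limited, yet named it as a possible source of error in long introns. A test was made for TUs above 1 TPM in RNA-seq and 10 TPM in PRO-seq, which 3 genes of the stretch passed (CAAP1, PLAA and MOB3B) of 10053 TUs in all. With edgeR's quasi-likelihood test and Benjamini-Hochberg adjustment over 10053 TUs, 40% were above and 50.4% below the median mRNA at an adjusted p under 0.05. All 3 genes were below it, which has to be read against that background of 50.4%. MOB3B was lower than the median mRNA by 1.48 on the log2 scale (log2 ratio -1.48, SE 0.066, edgeR adjusted p = 5.0e-19). This difference was far larger than the spread between libraries and stayed past the threshold in every fit tried.

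CAAP1 and PLAA were close to the median mRNA, with log2 ratios of -0.19 (SE 0.079, edgeR adjusted p = 0.0278) and -0.17 (SE 0.076, edgeR adjusted p = 0.0323). Neither call was stable. CAAP1 missed the threshold without RNA-seq replicate 1 or 2 or without either PRO-seq library (edgeR adjusted p between 0.0538 and 0.118). PLAA missed it without RNA-seq replicate 3 or without either PRO-seq library (edgeR adjusted p between 0.0625 and 0.157). With DESeq2 the adjusted p was 0.124 for CAAP1 and 0.0923 for PLAA. With each TU of at least 1 summed count in both assays, the ratios turned to 0.44 and 0.45, as the median mRNA then rests on other TUs. MOB3B was -0.85 there. Among those 21100 TUs, 31.2% were above and 38% below the median mRNA, and of 17 genes of the stretch 4 were above and 5 below. IFT74, which is under 10 TPM in PRO-seq and so was not in the first test, was the highest of them, with a log2 ratio of 2.40 (SE 0.110, edgeR adjusted p = 1.6e-103), and 1.89 with at least 10 summed counts. FOCAD was above with 0.65, but 0.13 (edgeR adjusted p = 0.336) with at least 10 summed counts. With at least 1 summed count, MOB3B was below too, with KLHL9, LRRC19 and MIR31HG, which had 1 RNA-seq count each, and with ENSG00000285103. C9orf72 was not called there (log2 ratio 0.10, edgeR adjusted p = 0.653). It was below with at least 10 summed counts (-0.41, edgeR adjusted p = 0.0481) and with 500 bp removed for PRO-seq (-0.55, edgeR adjusted p = 0.00914).

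**Figure D5:**
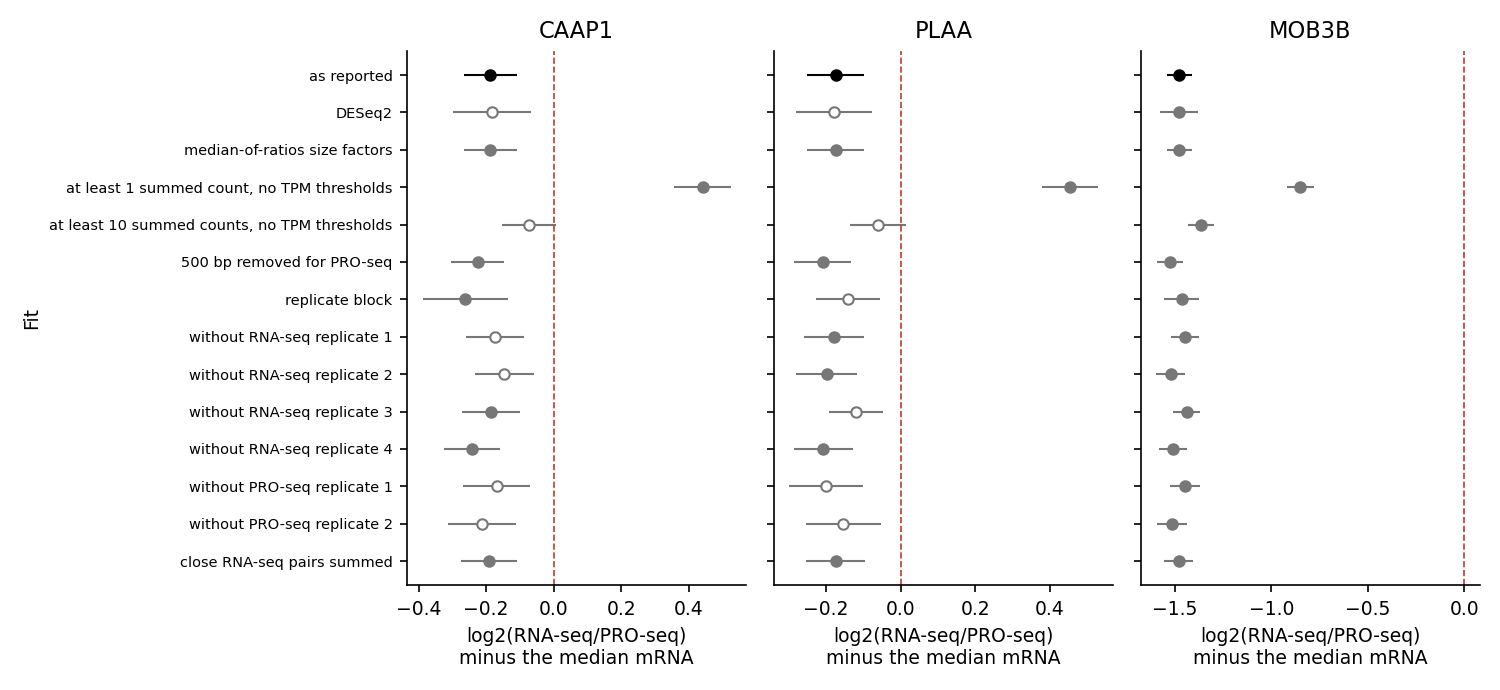
Log2 ratio of RNA-seq to PRO-seq minus that of the median mRNA for CAAP1, PLAA and MOB3B, in the reported fit (black) and in each alternative fit (gray). Points are estimates, bars are 1 SE, filled points had an adjusted p under 0.05 and the dashed line marks the median mRNA. MOB3B lies to the left of 0 in each fit, while CAAP1 and PLAA cross it with at least 1 summed count.

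Partners of the CDKN2A and CDKN2B products were expressed. A list of 12 genes held partners of INK4 proteins and ARF, and also the related inhibitors CDKN2C, CDKN2D, CDKN1A and CDKN1B. All 12 had RNA-seq counts, and CDK4 and CDK6, the kinases that p16INK4a inhibits, had 527 and 51.9 TPM. MDM2, the target of ARF, had 70.3 TPM. CDKN2C, which makes another INK4 protein, had 67.5 TPM. Of 10 genes of this list tested, inhibitors included, 5 were above and 5 below the median mRNA. Over all 10053 TUs, 40% were above and 50.4% below. CDK4 was above with a log2 ratio of 3.97 (SE 0.100, edgeR adjusted p = 2.3e-25), and CCND1, a cyclin that activates these kinases, was below with -1.81 (SE 0.092, edgeR adjusted p = 1.4e-17). CCND2 had 5014 RNA-seq counts and no PRO-seq length of its own.

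The 12 other genes of methionine salvage and methylthioadenosine were all expressed, from 20.1 TPM for APIP to 289 TPM for SMS. SMS, spermine synthase, and SRM, spermidine synthase, make methylthioadenosine, and PRMT5, an arginine methyltransferase that works with WDR77, is inhibited by it. PRMT5 had 273 TPM and a log2 ratio of 2.04 to the median mRNA (SE 0.065, edgeR adjusted p = 1.1e-22). In this list 8 of 12 genes were above and 4 below (40% and 50.4% over all TUs tested), with SRM at -1.20 and MAT2A, which makes S-adenosylmethionine, at -1.68 among the latter. The median log2 ratio of the list to the median mRNA was 1.62. Over all TUs tested, which include 1087 lncRNAs and 187 pseudogenes, it was -0.24.

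Of 11 measured genes of the type I interferon receptor and its signalling, 8 could be tested. IFNAR1, a chain of the receptor, had 25.7 TPM in RNA-seq and lay below the median mRNA (log2 ratio -0.56, SE 0.063, edgeR adjusted p = 1.5e-09). In all 5 of 8 were above (40% over all TUs tested), among them JAK1 (0.62) and TBK1 (1.29), 2 were below (50.4% over all TUs tested) and STAT2 did not pass (log2 ratio -0.05, edgeR adjusted p = 0.464). IRF9 had 3 RNA-seq counts and 2 PRO-seq counts. The receptor chain IFNAR2 had 162 RNA-seq counts and no PRO-seq length of its own.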

How the data were processed

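Total RNA-seq (n = 4) and PRO-seq (n = 2) libraries of K562 cells were analysed from raw counts per TU, as the authors deposited them. Per the methods and processing notes, Cutadapt trimming and HISAT2 alignment (GRCh38) came before HTSeq counting over GENCODE TUs, leaving out 500 bp at each end for PRO-seq (the label names 500 bp only). Tool versions and strandedness are not stated in those sources. Rows that name no TU (66.5% to 68.6% of RNA-seq and 86.5% to 88.6% of PRO-seq records) were left out.

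Of 42371 TUs, 37339 were matched by identifier to GENCODE 44 on GRCh37, which gave lengths and positions. Of the 60 genes, 36 were in RefSeq on GRCh38.p14, and all 36 lay in the same stretch there (median shift of the start 2 bp). TPM used summed counts, with exon length for RNA-seq and span minus 1000 bp for PRO-seq. Countable length also leaves out overlap with other TUs of the same strand.

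RNA-seq was tested against PRO-seq with edgeR 4.0.16 (R 4.3.3; quasi-likelihood, TMM, length offsets, FDR 0.05), centred on the median mRNA. DESeq2 1.42.0 was an alternative. On simulated data for this comparison, edgeR recovered 91.5% of 200 TUs with a log2 change of 1 among 10053, with 12 false calls. The simulation used a fixed dispersion, not estimated from these libraries, and left all other TUs unchanged. Most TUs were called in the data, so these figures do not give the error rates of the reported fit. Python 3.11.15 did the other steps. Intervals and floors cover counting error only, as reads carried no molecular identifiers in the counts.

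Named were every protein-coding gene of the stretch, other genes with at least 10 counts in an assay, the 3 genes nearest each end, the nearest and the highest protein-coding flanking genes, and genes of 3 lists, of which some are not reported here. The genes and lists were chosen with earlier results of these data known.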

Additional observations from a re-analysis of the deposited data

Results flagged for a closer look

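TEK was marked because 1 RNA-seq library stood apart from the other 3. It had 0.589, 0.889, 0.872 and 0.909 CPM in replicates 1 to 4, and the gap of replicate 1 to its neighbor was 0.886 of the whole range, past the 95% critical value of Dixon's test for 4 samples. These are 5 to 8 counts a library. Of 11 such groups tested, 1 passed, and chance marks about 1 in 20 groups.

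Signal was also present in TUs that the annotation used here does not place. Their share of the counts on TUs averaged 3.67% in RNA-seq and 2.80% in PRO-seq. Which of them lie on 9p was not analysed here.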

How the results depend on the processing

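With at least 10 summed counts, 10 genes were detected in RNA-seq, 17 in PRO-seq and 9 in both. Leaving out 1 library gave 20 to 26, 29 to 32 and 14 to 17. Genes that overlap an end of the stretch changed nothing. Without PLAA the stretch took 85.4 CPM in RNA-seq, and without MOB3B 285 CPM in PRO-seq. With matched TUs as the denominator, all its genes took 568 CPM in PRO-seq. The RNA-seq median of protein-coding genes was 0.0158 TPM as the mean of libraries, and 0 to 0.0206 TPM with 1 library left out. At 32 to 38 Mb it was 4.86 to 5.19 TPM with 1 library left out, and the PRO-seq median was 15.05 to 15.6 TPM. With 500 bp removed, the PRO-seq medians were 8.28 TPM at 10 to 20 Mb and 12.5 TPM at 32 to 38 Mb. The cause of these shifts was not tested.

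With at least 1 summed count, 21100 TUs were tested instead of 10053, the calls were 6579 above and 8008 below, and CAAP1 (0.44) and PLAA (0.45) reversed. Of 13 alternatives, CAAP1 and PLAA each kept the call in 6, missed the threshold in 6 and reversed in 1. MOB3B kept its call in all 13. With 1 library left out, the log2 ratio ranged from -0.24 to -0.15 for CAAP1, -0.21 to -0.12 for PLAA and -1.52 to -1.44 for MOB3B. CAAP1 lost the call without RNA-seq replicate 1 or 2 or either PRO-seq library, and PLAA without RNA-seq replicate 3 or either PRO-seq library. RNA-seq replicates 1 and 3, and 2 and 4, were closer to each other than other pairs (chi-square per degree of freedom 1.12 in both, against 1.74 to 2.11), and summing them left all 3 calls. Replicate numbers 1 and 2 are shared between assays, but deviations of same-numbered libraries correlated at only -0.0118 over 9997 TUs. A fit with the replicate number as a block called 3922 TUs above and 4966 below, and PLAA missed the threshold (edgeR adjusted p = 0.115). RNA-seq replicates 3 and 4 have no PRO-seq library of the same number. The assay difference in this fit therefore rests on replicates 1 and 2 only. Depth limits genes without counts to the bound of 3 counts, and the shortest genes cannot be measured in PRO-seq.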
